A study of Mus musculus with 10 samples.

Results

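Genes that mark the resident macrophages of the mouse lung, 10 in number, were followed in the lungs of P14 mice with and without increased pulmonary blood flow (IncPBF). They were taken by gene name from the 54532 genes of the deposited table, and all 10 were found in it. Chil3, Marco, Siglecf, Ear2 and Mrc1 were taken as the alveolar genes and C1qa, C1qb, C1qc, Cx3cr1 and Csf1r as the interstitial genes. All 10 had a mean above the 0.5 FPKM needed for testing. FPKM scales the fragments on each gene by its length and by the depth of the library, so that levels of different genes can be compared.

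The 5 lungs of the IncPBF group came from wild-type pups in which a fistula between the abdominal aorta and the inferior vena cava (ACF) had been made by microsurgery at P7. The fistula returns arterial blood to the right heart and so sends more blood through the lung. The 5 lungs of the sham group came from wild-type pups that had the operation at the same age without the puncture of the vessels. Whole lungs were sequenced, so that macrophages were a minor part of the RNA, and the pups could be male or female according to the study's methods. The labels give neither sex nor litter, nor whether every lung came from another pup, and the p-values measure the spread between these lungs only.

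Alveolar macrophages live in the airspace, where they take up surfactant and inhaled particles. They arise from fetal monocytes around birth and depend on the growth factor Csf2 (GM-CSF), made by alveolar epithelial cells, and on the transcription factor Pparg. Interstitial macrophages lie in the lung wall around vessels, airways and nerves, depend on signals through Csf1r, and are partly replaced by blood monocytes. Complement C1q, Cx3cr1 and Csf1r are typical of the interstitial cells, but Cx3cr1 and Csf1r are also expressed by monocytes, Mrc1 by some interstitial macrophages and lymphatic endothelium, and Siglecf and Ear2 by eosinophils.

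A few facts on the libraries touch every result. The fragments on genes ran from 16103423 to 20318525 in the IncPBF lungs and from 18171494 to 19400575 in the sham lungs. In every lung the surfactant gene Sftpc was at 9583 FPKM or more. Sham lung 5 stood apart in airway genes, with Scgb1a1, the secretory protein of club cells, at 128 FPKM against 4802 FPKM or more in the other 9 lungs. Xist, the RNA that silences one X chromosome in female cells, was at 52.4 to 66.5 FPKM in IncPBF lungs 2 to 5 and at 0.0770 FPKM or less in IncPBF lung 1 and the 5 sham lungs. In 9 of the 10 lungs, therefore, the group and the sex-linked signal cannot be told apart, and only IncPBF lung 1 resembled the sham lungs in Xist. For the 10 genes, results are given with and without the lungs that stand apart where this changes a call, and for most lists the changed counts of calls are given.

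The windows around the start sites of the genes that carry the clearest and the most scattered values are shown first. The C1q genes encode the 3 chains of a single complement protein and form a cluster on chromosome 4, in which C1qb (chr4:136880129-136886187), C1qc (chr4:136889804-136893065) and C1qa (chr4:136895917-136898803, GRCm38) lie within 18675 bases. The gap between C1qb and C1qc was 3616 bases and that between C1qc and C1qa 2851 bases. Chil3 lies alone of the 10 on chromosome 3 (chr3:106147554-106167564). RefSeq (GRCm38.p6) gave a window from 250 bases before to 50 bases after the start for 8 of the 10 genes, C1qa and Csf1r not being among them. The windows of Chil3 (chr3:106167515-106167814), C1qb (chr4:136886151-136886450) and C1qc (chr4:136892865-136893164), all on the minus strand, are written 5′ to 3′ in the direction of transcription. Capitals mark GAGGAA or its reverse complement TTCCTC, the core bound by PU.1, the transcription factor encoded by Spi1 that all macrophages need.
Chil3: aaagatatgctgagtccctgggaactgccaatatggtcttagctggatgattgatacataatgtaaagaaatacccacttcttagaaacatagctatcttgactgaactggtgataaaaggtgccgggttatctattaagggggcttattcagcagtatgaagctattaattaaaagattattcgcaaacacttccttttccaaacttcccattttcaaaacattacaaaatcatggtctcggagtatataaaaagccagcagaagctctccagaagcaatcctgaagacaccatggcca
C1qb: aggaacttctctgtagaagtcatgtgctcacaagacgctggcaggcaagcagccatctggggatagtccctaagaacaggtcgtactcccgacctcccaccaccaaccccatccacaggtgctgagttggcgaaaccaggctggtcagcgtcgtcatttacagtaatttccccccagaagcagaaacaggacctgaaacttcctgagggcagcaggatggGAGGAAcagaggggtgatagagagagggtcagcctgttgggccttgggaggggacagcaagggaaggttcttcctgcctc
C1qc: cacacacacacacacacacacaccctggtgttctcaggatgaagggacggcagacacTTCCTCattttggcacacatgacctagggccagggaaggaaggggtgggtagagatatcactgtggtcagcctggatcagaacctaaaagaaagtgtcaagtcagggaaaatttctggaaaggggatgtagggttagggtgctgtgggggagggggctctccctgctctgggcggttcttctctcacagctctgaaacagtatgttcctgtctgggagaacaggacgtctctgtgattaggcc

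The C1qb window held GAGGAA at position -30 from the start, and the C1qc window held it on the opposite strand at position -193. The Chil3 window did not hold these letters. Among the 8 windows, 5 held GAGGAA on either strand (Marco, Siglecf, Mrc1, C1qb and C1qc), against 28.3% of 32817 windows of the same length. The MAF half-site TGCTGA, or TCAGCA on the other strand, was in the windows of Chil3, Siglecf and C1qb and in 19.5% of all windows. In no window did the 2 motifs overlap. A match of letters describes the window and shows no binding.

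In the sham lungs the level ran in the order Chil3, Ear2, C1qa, C1qb, Csf1r, C1qc, Mrc1, Cx3cr1, Marco and Siglecf. The mean was 100.5 FPKM for Chil3, 42.8 FPKM for Ear2, 29.5 FPKM for C1qa, and 1.92 FPKM for Siglecf. The ranges of neighbours in this order overlapped over the 5 sham lungs, except between Csf1r and C1qc and between Mrc1 and Cx3cr1. The depth behind the values differed accordingly, from 39 to 125 fragments per lung for Siglecf to 644 to 9604 for Chil3.

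Of the 10 genes, 2 were lower in the IncPBF lungs and none was higher at an adjusted p under 0.05 (limma, Benjamini-Hochberg over 15388 genes), and both were C1q chains. Of all genes tested, 32.3% passed in either direction and 16.2% were lower, so that the share of these genes was close to the background. The log2 fold change was below 0 for 8 of the 10, among them Marco at -0.01, and the mean FPKM was lower in IncPBF for 7. The median log2 fold change was -0.27 against 0.01 over all genes tested. At an unadjusted p under 0.05 there were 6, among them Cx3cr1 as the single higher gene, against 43.2% of all genes. Without IncPBF lung 1 the same 2 chains passed, with 27.9% of all genes passing. In none of the 10 did the 2 groups separate without overlap, which they did for 23.2% of all genes tested. In whole-lung RNA, fewer macrophages and less RNA per macrophage cannot be told apart.

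**Figure D1:**
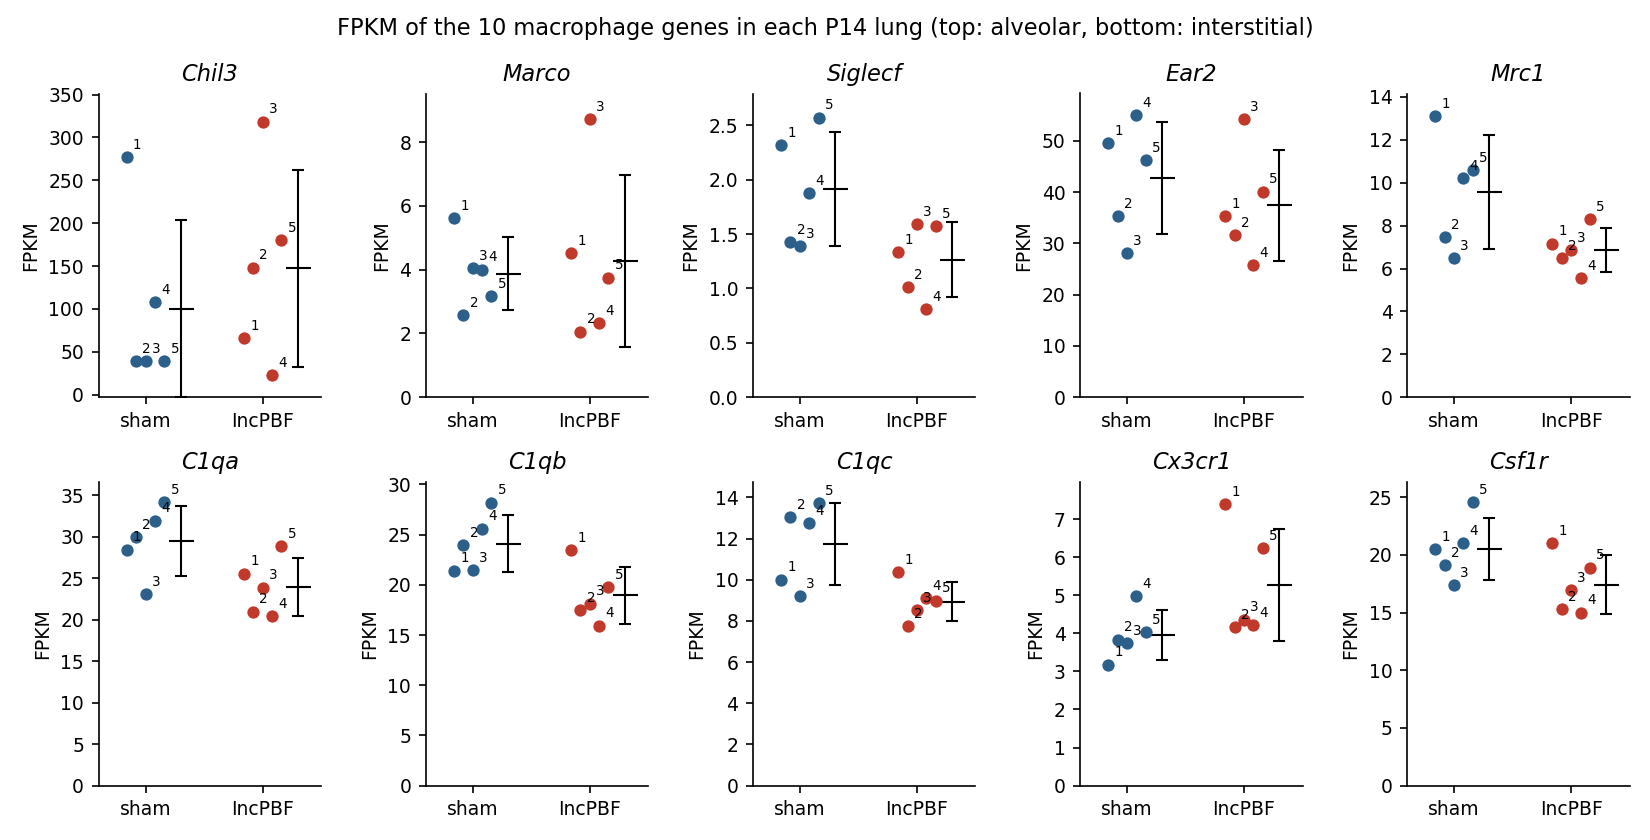
FPKM of each of the 10 genes in each lung (vertical axes, linear, a scale of its own for each gene), sham on the left (blue) and IncPBF on the right (red) of every panel. Points are lungs with their number beside them, and the bars to their right give the mean and SD (n = 5 per group), which for Chil3 in sham reaches below 0 because the SD of 103.1 exceeds the mean of 100.5. The groups overlap in every panel, and Chil3 runs from 22.9 to 318.5 FPKM within the IncPBF group.

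C1qa, C1qb and C1qc make the A, B and C chains of C1q, which binds immune complexes and dying cells and starts the classical complement pathway. C1qb was at 23.4, 17.5, 18.1, 15.9 and 19.8 FPKM in IncPBF lungs 1 to 5 and at 21.4, 23.9, 21.4, 25.6 and 28.2 FPKM in sham lungs 1 to 5. C1qc was at 10.4, 7.74, 8.52, 9.09 and 8.98 FPKM in the IncPBF lungs and at 10.01, 13.03, 9.22, 12.8 and 13.7 FPKM in the sham lungs. IncPBF lungs 2 to 5 lay below all sham lungs for both chains, and IncPBF lung 1 lay within the sham range.

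For C1qb the mean was 18.9 ± 2.87 FPKM in IncPBF and 24.1 ± 2.88 FPKM in sham (SD, n = 5 each), a log2 fold change of -0.35 with a standard error of 0.11 and an adjusted p of 0.0289 by limma. For C1qc the IncPBF mean of 8.94 ± 0.96 FPKM compared with 11.7 ± 2.00 FPKM in sham, and the log2 fold change by limma was -0.38 ± 0.12 (SE) at an adjusted p of 0.0299. The exact permutation test over all assignments of the lungs, which can give no p below 0.00794, gave 0.0317 for C1qb and 0.0397 for C1qc (two-sided).

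C1qa, the chain with the highest level, was at 25.6, 20.98, 23.9, 20.4 and 28.9 FPKM in the IncPBF lungs and at 28.5, 29.96, 23.1, 31.9 and 34.2 FPKM in the sham lungs. Sham lungs 2, 4 and 5 lay above all IncPBF lungs, and IncPBF lungs 2 and 4 below all sham lungs. The log2 fold change of -0.30 (95% interval -0.56 to -0.04) had an adjusted p of 0.0727 by limma and did not pass the threshold.

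The proportions of the chains overlapped between the groups. The ratio of C1qa to C1qb ran from 1.09 to 1.46 in IncPBF and from 1.08 to 1.33 in sham. The ratio of C1qb to C1qc ran from 1.75 to 2.26 in IncPBF and from 1.84 to 2.33 in sham. No stretch of 50 bases in the transcripts of these 3 genes occurs in another gene, so that their fragments can be placed.

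The calls of C1qb and C1qc sat near the threshold. With 1 lung left out at a time, C1qb passed in 4 of 10 fits (adjusted p 0.00795 to 0.0697, limma) and C1qc in 3 of 10 (0.00767 to 0.0714). Both calls were kept without IncPBF lung 1 (0.00795 and 0.0234), sham lung 1 (0.0285 and 0.0246) or sham lung 3 (0.0232 and 0.00767), and C1qb alone also without IncPBF lung 5 (0.0405). Both were lost without IncPBF lung 2 (0.0657 and 0.0714), IncPBF lung 3 (0.0597 and 0.0622), IncPBF lung 4 (0.0697 and 0.0538), sham lung 2 (0.0523 and 0.0688), sham lung 4 (0.0570 and 0.0614) or sham lung 5 (0.0659 and 0.0694), and C1qc also without IncPBF lung 5 (0.0508). C1qa passed without IncPBF lung 5 (0.0332) and without sham lung 3 (0.0163).

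The sex-linked signal moved with these results. With Xist as a covariate the log2 fold change was -0.03 for C1qb (adjusted p 0.940, limma) and -0.14 for C1qc (0.720), and 4.82% of all genes still passed. This fit rests on IncPBF lung 1, the only IncPBF lung with low Xist, and so does not stand apart from the next. IncPBF lung 1 alone against the 5 sham lungs gave -0.03 (0.936) and -0.16 (0.758), with 1% of all genes passing. Scaling every lung to the same total left both chains lower but past the threshold no longer (-0.27 with 0.0607 and -0.30 with 0.0582), although 34.7% of all genes passed. The same scaling moved the median log2 fold change of all genes tested from 0.01 to 0.09. The part of the sex-linked signal in the C1q values was not tested beyond these fits.

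**Figure D2:**
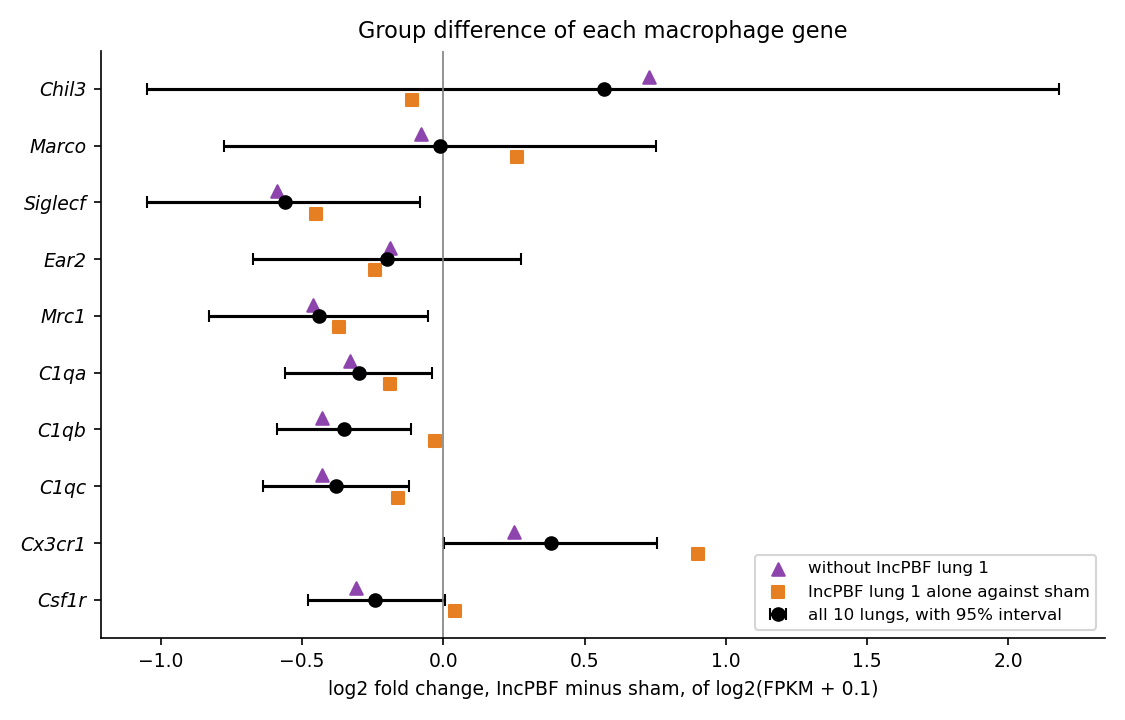
Log2 fold change, IncPBF minus sham, of log2(FPKM + 0.1) for the 10 genes (horizontal axis), for all lungs (black, with 95% intervals from limma), without IncPBF lung 1 (triangles) and with IncPBF lung 1 as the sole IncPBF lung (squares). The value for C1qb moves from -0.35 with all lungs to -0.03 with IncPBF lung 1 alone, and the interval of Chil3 spans -1.05 to 2.18 with all lungs.

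Among the 5 alveolar genes none passed the threshold, and 2 (Siglecf and Mrc1) had an unadjusted p under 0.05 by limma. None of the 5 passed with limma-voom on the recovered fragments. Chil3, a secreted chitinase-like protein that alveolar macrophages make in large amounts, was at 65.8, 148.3, 318.5, 22.9 and 180.6 FPKM in IncPBF lungs 1 to 5 and at 277.2, 39.4, 39.4, 107.7 and 38.9 FPKM in sham lungs 1 to 5. The highest lung was 13.9 times the lowest in the IncPBF group and 7.12 times in the sham group. The log2 fold change of 0.57 had a 95% interval of -1.05 to 2.18 and an adjusted p of 0.593 (limma), and differences of this size in either direction could not be told from the spread. Of the 50-base stretches of its transcripts, 26.9% also occur in other genes, most of them in Chil4, which was at a mean of 0.232 FPKM.

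Siglecf, a receptor for sialic acids, was at 1.33, 1.01, 1.59, 0.81 and 1.57 FPKM in the IncPBF lungs and at 2.32, 1.43, 1.39, 1.88 and 2.57 FPKM in the sham lungs. Its log2 fold change of -0.56 (95% interval -1.05 to -0.08) was the lowest of the 10 genes, with an adjusted p of 0.0708 by limma and an exact permutation p of 0.0635. Sham lungs 1, 4 and 5 lay above all IncPBF lungs, and sham lungs 2 and 3 among them. It passed only when sham lung 3 was left out (0.0428 by limma).

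Mrc1, the mannose receptor, was at 7.15, 6.48, 6.85, 5.54 and 8.31 FPKM in the IncPBF lungs and at 13.1, 7.46, 6.48, 10.2 and 10.6 FPKM in the sham lungs. The same 3 sham lungs, 1, 4 and 5, lay above all IncPBF lungs. The log2 fold change was -0.44 (95% interval -0.83 to -0.05) with an adjusted p of 0.0784 by limma, and 0.0175 without sham lung 3.

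Ear2, a secreted ribonuclease, ranged from 25.7 to 54.3 FPKM in IncPBF and from 28.1 to 54.9 FPKM in sham, with a log2 fold change of -0.20 (adjusted p 0.514, limma). Of its 50-base stretches 41.5% also occur in other genes, most often in Ear10 (26%), which was at a mean of 0.0163 FPKM. Gm49101 covers the same bases on the opposite strand and was at a mean of 0.0638 FPKM. Marco, a scavenger receptor that binds bacteria and particles, ranged from 2.05 to 8.72 FPKM in IncPBF and from 2.56 to 5.62 FPKM in sham, with a log2 fold change of -0.01 (95% interval -0.78 to 0.75). IncPBF lung 3 was the highest of all 10 lungs for Chil3 and Marco. The sign of the Marco value turned with the setting, to 0.22 with Xist as a covariate and 0.07 with an equal total per lung.

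Eosinophils, which share Siglecf and Ear2, left little trace in these libraries. None of 5 eosinophil markers reached the level for testing, their sum was at most 1.08 FPKM in any lung, and Epx, the eosinophil peroxidase, had at most 3 fragments. Of 4 tested markers of lymphatic endothelium, which shares Mrc1, 1 was lower (Flt4, the receptor of lymphatic growth factors, log2 fold change -0.56, adjusted p 0.00553, limma, and -0.51 with 0.221 with Xist as a covariate), against 16.2% of all genes. The summed level of the 5 listed lymphatic markers was 12.5 to 16.5 FPKM in IncPBF and 13.45 to 75.3 FPKM in sham, of which Ccl21a alone ran from 1.56 to 59.3 FPKM in sham without passing (adjusted p 0.311), and their part in the Mrc1 values was not tested.

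The 2 receptors went in opposite directions without passing the threshold. Cx3cr1, the receptor of fractalkine, was at 7.38, 4.16, 4.36, 4.22 and 6.24 FPKM in the IncPBF lungs and at 3.18, 3.83, 3.75, 4.98 and 4.03 FPKM in the sham lungs. IncPBF lungs 1 and 5 lay above all sham lungs, and IncPBF lungs 2 to 4 within the sham range. The log2 fold change was 0.38 (95% interval 0.00 to 0.76) with an adjusted p of 0.113 by limma. With Xist as a covariate it was 0.89 (0.0603), with IncPBF lung 1 alone 0.90 (0.118) and without that lung 0.25 (0.231). The gene model of Cx3cr1 in the table spans other genes, among them Csrnp1, Wdr48 and Gorasp1, and the sources used here do not state whether the counting used the strand.

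Csf1r, the receptor through which Csf1 and Il34 keep macrophages alive, ranged from 15.0 to 21.01 FPKM in IncPBF and from 17.3 to 24.6 FPKM in sham. Its log2 fold change was -0.24 (95% interval -0.48 to 0.01) with an adjusted p of 0.124 by limma. The exact permutation p was 0.0952. Its value was 0.06 with Xist as a covariate and 0.04 with IncPBF lung 1 alone. A share of 14.3% of its 50-base stretches is also part of Hmgxb3, which lies on the opposite strand and was at a mean of 6.17 FPKM.

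The ligands of both receptors were measured in the same lungs. Il34, which neurons and epithelial cells make for Csf1r, was at 4.47 ± 0.47 FPKM in IncPBF and 10.1 ± 1.56 FPKM in sham, a log2 fold change of -1.15 (adjusted p 3.57e-05, limma). No IncPBF lung, at 4.22 to 5.31 FPKM, reached the lowest sham lung at 8.30 FPKM. Csf1, the other ligand, was at 6.56 ± 0.68 FPKM and 7.13 ± 0.77 FPKM (log2 fold change -0.12, adjusted p 0.346). Il34 passed with Xist as a covariate (adjusted p 0.00987), and with IncPBF lung 1 alone its adjusted p was 0.0518.

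Cx3cl1, the ligand of Cx3cr1, also separated the groups, at 8.11 ± 0.58 FPKM in IncPBF and 11.3 ± 1.69 FPKM in sham (log2 fold change -0.46, adjusted p 0.00474, limma). Its log2 fold change was -0.37 with Xist as a covariate (adjusted p 0.264), and with IncPBF lung 1 alone -0.39 (0.374). Csf2, the growth factor of alveolar macrophages, was at 1.35 ± 0.07 FPKM and 1.34 ± 0.62 FPKM (log2 fold change 0.13, adjusted p 0.744), and its receptor chains Csf2ra and Csf2rb had log2 fold changes of 0.27 (0.0656) and 0.12 (0.498). Of the 11 tested genes in the list of growth factors, receptors and adaptors, 3 were lower (Il34, Cx3cl1 and Tgfbr2) and 1 was higher (Ccr2), against 16.2% and 16.1% of all genes, with a median of 0.12. Only Il34 passed with Xist as a covariate and none with IncPBF lung 1 alone, where Tgfbr2 had -0.38 and -0.41 and Ccr2 0.95 and 0.96.

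The transcription factors behind these cells did not move in one direction. Of 14 tested, 3 were higher and 3 lower, against 16.1% and 16.2% of all genes. Maf, which drives macrophage identity, rose by 0.49 on the log2 scale (adjusted p 0.000284, limma), followed among the higher genes by Zeb2 (0.29) and Runx1 (0.36). The lower genes were Cebpa (-0.37), Nr1h3 (-0.40), a sensor of oxysterols, and Mitf (-0.37). Spi1 was at 0.16 (adjusted p 0.434) and Pparg at -0.01 (0.972). With Xist as a covariate or with IncPBF lung 1 alone none of the 6 passed (limma), with log2 fold changes of 0.45 and 0.46 for Maf (adjusted p 0.0542 and 0.184) and -0.31 and -0.32 for Cebpa. Cebpa and Maf are also made by epithelial and stromal cells of the lung.

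Pairs of genes were compared across the 10 lungs, with each value taken as the deviation from the mean of its own group. The 10 pairs of alveolar genes had Pearson correlations of 0.38 to 0.84 with a median of 0.68. The 10 pairs of interstitial genes had 0.61 to 0.90 with a median of 0.74. The 25 mixed pairs ran from -0.35 (Chil3 with C1qc) to 0.78 (Siglecf with Csf1r) with a median of 0.25. Some mixed pairs, such as Siglecf with C1qa (0.75), were above some alveolar pairs, such as Marco with Mrc1 (0.38). These are descriptions over 10 lungs that share depth and dissection, without a test.

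The closest pair was C1qb with Csf1r (0.90), followed by C1qa with Csf1r (0.86) and Siglecf with Mrc1 (0.84). C1qb and Cx3cr1 varied together within the groups (0.83), although their means differed between the groups in opposite directions. Chil3 was most like Ear2 (0.76) among the alveolar genes and varied little with the C1q chains. The ratio of Chil3 to C1qa ran from 1.12 to 13.3 in IncPBF and from 1.14 to 9.74 in sham.

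**Figure D3:**
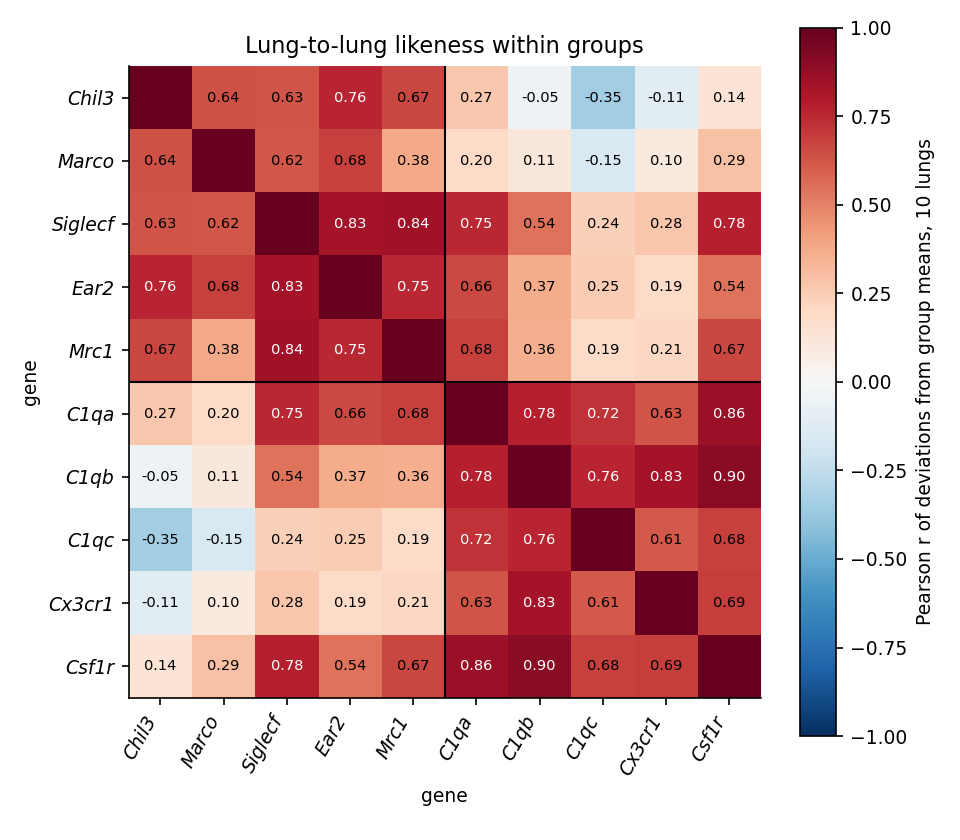
Pearson correlation between each pair of the 10 genes over 10 lungs, computed on log2(FPKM + 0.1) after the mean of each group was taken away (colour scale and printed values, no unit). The 5 alveolar genes come first and the 5 interstitial genes after them, and the 2 blocks along the diagonal are higher (medians 0.68 and 0.74) than the mixed block (median 0.25).

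Among 13524 other genes with a mean of at least 1 FPKM, those with the pattern most like Chil3 over the 10 lungs were Abcg2 (0.92), Ebp (0.89), Sfmbt1 (0.89), Atp6v1b2 (0.88) and Cpox (0.88). Those most like C1qa were Atg4c (0.99), Rnf150 (0.94), Cebpa (0.94), Lgi3 (0.93) and Rprd2 (0.93). With 10 lungs and this many genes, high values arise readily and the lists are descriptions.

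Other genes of alveolar macrophages were read from a further list of 18 genes, all tested. Of these 7 were lower, 2 were higher and 9 did not pass, against 16.2% of all genes lower and 16.1% higher, with a median log2 fold change of -0.09. Lpl, the lipoprotein lipase, went from 20.8 ± 2.42 FPKM in sham to 11.3 ± 1.28 FPKM in IncPBF (-0.88, adjusted p 8.67e-05, limma). Fabp1 had -1.10 (0.00395), Serpinb1a -0.38 (0.00606) and Ear1, a relative of Ear2, -0.81 (0.0112). Fabp1 rested on few fragments, 9 to 47 per lung. Ctsk (0.54) and Fabp5 (0.30) were higher. Lpl, Fabp5 and Ctsk are also made by other lung cells. With Xist as a covariate 1 of the 7 stayed past the threshold, which was also the number with IncPBF lung 1 alone, and in both it was Lpl (-1.08 and -1.09). Over all genes 4.82% and 1% passed in these fits. The log2 fold changes in these fits were -0.91 and -0.94 for Ear1, -0.46 and -0.48 for Serpinb1a and -0.93 and -0.95 for Fabp1. Abcg1 went from -0.49 with all lungs to -0.19 and -0.22, Krt79 from -0.91 to -0.62 and -0.63, and Cidec from -0.92 to -1.16 and -1.22. None of these genes passed with Xist as a covariate. Abcg1, Krt79 and Cidec were named after their values were seen. Without sham lung 5, 5 were lower and 1 higher, and without IncPBF lung 1, 7 were lower and 1 higher.

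Of 19 further interstitial macrophage genes 16 were tested, and 7 were lower, none higher, against 16.2% and 16.1% of all genes, with a median of -0.25. The other 9 did not pass, among them Pf4 (-0.01), Ms4a7 (0.01) and F13a1 (-0.10). Cd163, the scavenger receptor for haemoglobin and haptoglobin, went from 2.45 ± 1.08 FPKM in sham to 0.63 ± 0.16 FPKM in IncPBF, a log2 fold change of -1.73 (adjusted p 0.000815, limma). Its highest IncPBF lung was at 0.88 FPKM and its lowest sham lung at 1.48 FPKM, so that IncPBF lung 1, at 0.68 FPKM, was with its own group. Apoe (-1.01), Selenop (-0.64) and Gas6 (-0.46) were also lower, and these 3 are made by epithelial and stromal cells as well. Of the 7, 4 stayed past the threshold with Xist as a covariate (Apoe, Selenop, Lyve1 and Ms4a4a, against 4.82% of all genes), and with IncPBF lung 1 alone 1 did (Lyve1). The fold changes of the others remained of like size in these fits, as for Cd163 (-1.55 and -1.61, adjusted p 0.0982 and 0.197) and Gas6 (-0.41 and -0.42), and the median of the list was -0.28 and -0.26. Without sham lung 5, 8 were lower. Lyve1 is also made by lymphatic endothelium, and its mean of 137.1 FPKM in sham was above that of every gene of the 10. Lyve1, Ms4a4a, Pf4, Ms4a7 and F13a1 lie outside the rule for named genes and were named after their values were seen.

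Of 21 genes of all macrophages and phagocytes, 3 were higher and 2 lower, with a median of 0.11. In this fit these shares were below the 16.1% and 16.2% of all genes. An equal total per lung gave 5 higher and 2 lower, with a median of 0.19, and 34.7% of all genes passed in either direction. In that setting the median of all genes tested also moved up, from 0.01 to 0.09. Itgam (CD11b), an integrin of monocytes, neutrophils and interstitial macrophages, went from 0.61 ± 0.20 to 1.33 ± 0.14 FPKM (1.04, adjusted p 0.00242, limma), with Cd300a (0.62) and Tyrobp (0.27) behind it. Mertk, a receptor for dying cells, was lower (-0.91, adjusted p 8.01e-05), as was Lyz2 (-0.78), a lysozyme that alveolar type 2 cells make too. The general markers Adgre1 (-0.34, adjusted p 0.222), Cd68 (0.17, 0.472) and Ptprc (0.04, 0.833) did not pass. Without IncPBF lung 1, 2 genes of this list were higher. Taking Xist as a covariate, 2 were higher (Cd300a, and Aif1, which had not passed with all lungs at an adjusted p of 0.262) and 1 lower (Mertk), and with IncPBF lung 1 alone none passed, at medians of 0.22 and 0.25. Aif1 was named after its values were seen.

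**Figure D4:**
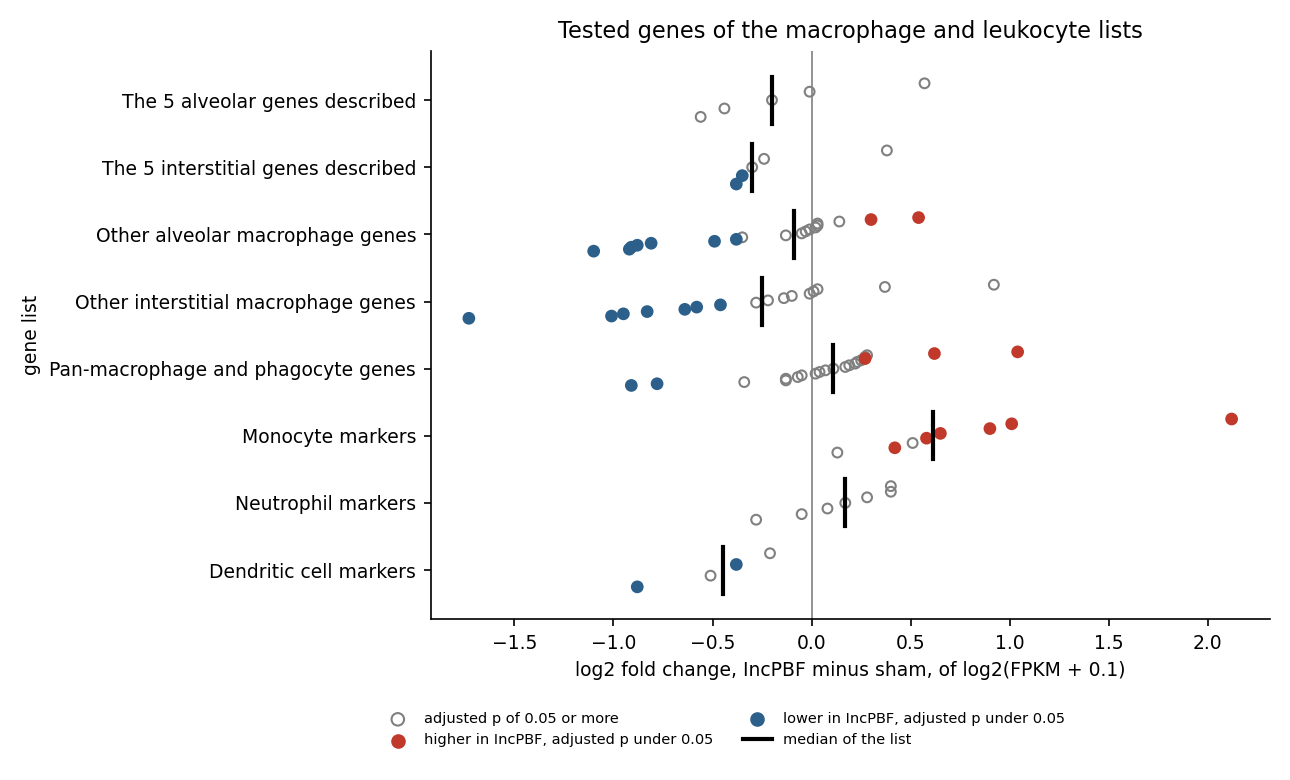
Log2 fold change, IncPBF minus sham, of log2(FPKM + 0.1) for the tested genes of 8 lists (horizontal axis). Each point is a gene, filled blue where lower and red where higher in IncPBF at an adjusted p under 0.05, and black bars mark list medians. The monocyte markers lie right of 0 with a median of 0.61, and both interstitial lists have medians left of 0 (-0.30 and -0.25).

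Markers of blood monocytes, which share Cx3cr1 and Csf1r, moved with the group. Of 8 markers 6 were higher and none lower, with a median log2 fold change of 0.61, against 16.1% of all genes higher. Nr4a1, which patrolling monocytes need, had 2.12 (adjusted p 0.0036, limma), Plac8 1.01 (0.0036), Spn 0.42 (0.00894) and Ccr2, the receptor for monocyte entry into tissue, 0.65 (0.0131). The summed level of the 8 was 39.9 to 93.5 FPKM in IncPBF and 22.7 to 30.1 FPKM in sham, with no overlap and no marker at 0. Nr4a1, which many cell types switch on quickly after a stimulus, made up a large part of this sum, with 32.8 ± 21.2 FPKM in IncPBF and 6.37 ± 2.05 FPKM in sham. The other 7 markers summed to 28.9 to 50.8 FPKM in IncPBF and 17.1 to 22.7 FPKM in sham, and single markers such as Ccr2 overlapped. In the fit with Xist as a covariate 3 passed (Plac8, Spn and Fcgr4, the last of them not among the 6), at a median log2 fold change of 1.19. The median with IncPBF lung 1 alone was 1.21. Both medians rest on IncPBF lung 1, the highest IncPBF lung for each of the 7 markers other than Nr4a1, such as Plac8 (28.7 FPKM). Without that lung the median was 0.51 and 5 passed. Fcgr4 was named after its values were seen. Their part in the values of Cx3cr1 and Csf1r was not tested.

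Markers of some other cell types of the lung also moved with the group. Of 8 markers of alveolar epithelial cells 6 were lower, against 16.2% of all genes. Their sums of 11300 to 13740 FPKM in IncPBF and 13530 to 16670 FPKM in sham were mostly Sftpc, which did not pass (adjusted p 0.358, limma), and the other 7 summed to 1639 to 1868 FPKM and 2374 to 2798 FPKM. Of 6 endothelial markers 4 were lower (sums 521.5 to 579.1 against 599.1 to 836.4 FPKM). With Xist as a covariate or with IncPBF lung 1 alone no epithelial or endothelial marker passed, at median log2 fold changes of -0.39 and -0.41 for the epithelial and -0.35 and -0.38 for the endothelial list. Of 4 tested dendritic cell markers 2 were lower, Clec9a (-0.88) and Zbtb46 (-0.38). Clec9a, at 20.8 FPKM in sham, had -1.0 with Xist as a covariate (adjusted p 0.00244, limma) and -1.02 with IncPBF lung 1 alone. Xcr1 and Flt3 were too low for testing, at 0.47 and 0.40 FPKM in sham and 0.53 and 0.34 FPKM in IncPBF. They were named after their values were seen, and whether Clec9a stands for dendritic cells here was not tested. None of 7 neutrophil or 6 lymphocyte markers passed by limma (0 and 1 at an unadjusted p under 0.05). Without sham lung 5, 5 epithelial markers and 1 lymphocyte marker were lower. None of 5 ciliated cell markers passed with all lungs. Their median log2 fold change went from 0.81 to -0.19 without sham lung 5, where 1 was lower. Of 5 erythroid markers 3 were lower, with sums of 250.9 to 1927 FPKM in IncPBF and 1458 to 2442 FPKM in sham, and no listed gene of these types was at 0 in all lungs. Without IncPBF lung 1, 1 erythroid and 5 epithelial markers were lower, and without sham lung 5, 2 erythroid markers. No erythroid marker passed with Xist as a covariate and 4 were lower with IncPBF lung 1 alone, at medians of -2.45 and -2.48 against -1.50 with all lungs. The part of these cell types in the 10 genes was not tested.

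Of 18 listed genes of macrophage activation 11 were tested. Among them Il1b, an inflammatory cytokine, was higher (0.70 ± 0.25 to 1.89 ± 0.58 FPKM, log2 fold change 1.31, adjusted p 0.00289, limma, and 1.27 with 0.146 with Xist as a covariate). Cd86, a costimulatory ligand, was lower (-0.45, 0.046), but its log2 fold change was -0.16 with Xist as a covariate (0.765), -0.15 with IncPBF lung 1 alone (0.836) and -0.37 with an equal total per lung (0.0958). Retnla, a secreted product of alternatively activated macrophages and lung epithelium, ranged from 130.5 to 1338 FPKM in IncPBF and from 3.64 to 342.5 FPKM in sham and did not pass (2.86, 0.0971). Retnla was named after its values were seen.

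Of 14 genes whose products work with the 10 or are related to them, 5 were lower and 2 higher, with a median of -0.13. Of all genes 16.2% were lower and 16.1% higher, so that the share of higher genes was near the background. C1s1 and C1ra, the proteases that C1q activates, had log2 fold changes of -0.54 (adjusted p 0.00151, limma) and -0.53 (0.00253). Cd93, a C1q receptor-like protein of endothelium, had -0.48 (0.000606) and Lrp1, a receptor that takes up apoptotic cells, -0.53 (0.00881). Mrc2, a collagen receptor related to Mrc1, had 0.26 (0.0133) and Megf10, a C1q-binding phagocytic receptor, 0.62 (0.0142). None of the 14 passed with Xist as a covariate, and the median was -0.15 in this fit and -0.15 with IncPBF lung 1 alone. The log2 fold changes in these fits were -0.36 and -0.38 for C1s1 and -0.58 and -0.61 for C1ra. They were -0.49 and -0.50 for Cd93, -0.47 and -0.50 for Lrp1, 0.28 and 0.27 for Mrc2, and 0.54 and 0.55 for Megf10.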

How the data were processed

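Whole lungs of 5 IncPBF and 5 sham mice were sequenced (NEBNext libraries, NovaSeq). The authors deposited FPKM per gene together with the gene length, after in-house clean-up of the reads. The submitters' processing notes name Bowtie 0.12.2 and the GRCm38 build, but the role of each tool and the counting are not given in the sources used here. Of the genes shared with GENCODE M21, 98.3% had the same coordinates. FPKM times length was a whole multiple of 1 step in 100% of values (tolerance 0.05), so that fragments were recovered for depth and for limma-voom. Columns named for volume overload were taken as the IncPBF lungs.

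The 15388 genes whose mean reached 0.5 FPKM entered limma 3.58.1 (R 4.3.3) as log2(FPKM + 0.1), with all 10 lungs, no covariates and Benjamini-Hochberg adjustment. Fold changes on this scale understate the change of low genes. Single values were also compared by exact permutation over all assignments of the lungs. Python 3.11.15, pandas 2.3.3 and matplotlib 3.10.9 were used, and the main fit was tested on simulated data. The simulation held no sex-linked signal and no lung that stands apart, so it does not bear on either.

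The 10 genes and the lists were chosen with earlier results of these data known. From the lists, up to 4 genes per list and direction with the smallest adjusted p were named, with the ligands, receptors and general markers given in the text. For likeness, the 5 genes with the highest correlation were named. Alternatives were pseudocounts, filters, scalings, limma-voom, a replicate block, Xist as a covariate and leaving out each lung. A gene of the lists is not reported here.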

Additional observations from a re-analysis of the deposited data

Results flagged for a closer look

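Among 44 checks of a gene in 1 group of 5 lungs, 5 had a lung farther from the nearest of the others than Dixon's 95% limit for 5 samples allows, a gap of more than 0.71 of the range. By chance about 1 in 20 groups would. Chil3 was at 277.2 FPKM in sham lung 1, with the other 4 sham lungs at 38.9 to 107.7 FPKM. Il34 was at 5.31 FPKM in IncPBF lung 5 and Cx3cl1 at 7.11 FPKM in IncPBF lung 4, both still outside the sham range. Cd68 was at 15.7 FPKM in IncPBF lung 3, the lung with the highest Chil3 and Marco. Xist was at 0.0144 FPKM in IncPBF lung 1, with the other 4 IncPBF lungs at 52.4 FPKM or more.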

How the results depend on the processing

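Of the 10 genes, C1qb and C1qc passed the threshold, and 0 of 10 did without the filter on low genes, with an equal total per lung, with Xist as a covariate, or with IncPBF lung 1 alone. Leaving out 1 lung at a time gave 0 to 5 of 10 and 3869 to 5234 of all genes. Of all genes 741 passed with Xist as a covariate and 154 with IncPBF lung 1 alone, which leaves fewer samples. In these 2 fits 3 and 0 monocyte markers passed as higher (5 to 6 with 1 lung left out), 4 and 1 of the further interstitial genes as lower (7 to 8), and 1 and 1 of the further alveolar genes as lower (5 to 7). Both fits rest on the same lung, IncPBF lung 1, and are not independent. The median log2 fold changes of these 3 lists in them were 1.19 and 1.21 (0.61 with all lungs), -0.28 and -0.26 (-0.25), and -0.28 and -0.30 (-0.09). Without IncPBF lung 1 the 3 medians were 0.51, -0.28 and -0.05. The median of the 5 interstitial genes among the 10 went from -0.30 to -0.03 in both fits. The sign turned for Chil3 (-0.06 and -0.11) and Csf1r (0.06 and 0.04) in these fits. For Marco it turned in the same fits (0.22 and 0.26), with an equal total (0.07), a pseudocount of 1 (0.01), unlogged FPKM (0.14) and when single lungs were left out (-0.31 to 0.20). None of these signs belonged to a call, and the cause was not tested.

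Lungs with the same number were not paired, since their deviations had correlations of -0.07 to 0.09. With the replicate number as a block 4872 genes passed, and C1qb and C1qc did as well (2 of 10). IncPBF lung 1 alone and the list counts under other settings were added after seeing the data, and the lone lung is assumed to vary like the others. Of the alternatives on recovered fragments, limma-voom was run, and count models, listed as 2 of the alternatives, were not. For genes at few fragments, such as Siglecf and Marco, depth adds to the error.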
